A study of Mus musculus with 7 samples.

Results

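Fgf21, Gdf15, Angptl4, Angptl8, Fst, Inhba, Inhbe, Lect2 and Fetub encode proteins that the liver secretes during metabolic or inflammatory stress. They were taken by gene symbol, as 9 of the 56691 genes in the count table, and all 9 passed the filter on low counts that left 13683 genes for testing. The question asked of them was whether their transcripts differed between livers of control mice and livers of mice given lipopolysaccharide (LPS), the cell-wall component of Gram-negative bacteria that is injected to model septic acute liver injury.

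Secreted factors from hepatocytes, called hepatokines, carry information on nutrition and injury from the liver to fat, muscle, brain and vessels. FGF21 and GDF15 are hormones of stressed cells and are known targets of the integrated stress response, in which the transcription factors ATF4 and CHOP answer to amino acid shortage or misfolded protein. ANGPTL4 and ANGPTL8 restrain lipoprotein lipase and so steer blood triglyceride between tissues. The activin subunits encoded by Inhba and Inhbe are ligands of the transforming growth factor β family, and follistatin, the product of Fst, binds activins and blocks them. LECT2 is a hepatocyte-derived chemotactic factor, and fetuin-B is a cystatin-fold plasma protein known as an inhibitor of the egg-coat protease ovastacin and as a factor linked to insulin resistance.

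The animals were male C57BL/6J mice, bought at 8 weeks of age and housed for 2 weeks before the experiment. LPS was given at 10 mg/kg and livers were taken 24 h later. The control group had 4 libraries and the LPS group 3, from a study with 6 mice in each group. Whether the control mice were injected with a vehicle is not given in the sources used here, and the labels only number the libraries, while a legend of the study counts the sequenced samples as mice. The libraries were strand-specific and poly(A)-selected, and each held the messenger RNA of a whole piece of liver.

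Total counts ran from 14991022 to 18584140 in the control libraries and from 17095607 to 20500391 in the LPS libraries, and 3 counts corresponded to 0.138 to 0.212 CPM (counts per 1000000, on library sizes scaled by the trimmed mean of M-values). The group labels were checked against acute-phase genes. Saa1, the main inducible acute-phase apolipoprotein, had a mean of 87.3 CPM in control and 22105 CPM in LPS libraries, and Orm2, an acute-phase glycoprotein, rose by a log2 fold change of 7.19 (SE 0.33). Ttr, a carrier protein that falls in acute inflammation, was lower by a log2 fold change of -1.23 (SE 0.18). Alb, the albumin gene, was below every control library in all 3 LPS libraries, with a log2 fold change of -0.93 (SE 0.24) that stayed short of the fold threshold used here, though not without control replicate 1 or 2 (-1.02 and -1.03) or with total counts as library sizes (-1.05). Over all fits that left out 1 library, the log2 fold change of Alb ran up to -0.774 and its edgeR adjusted p up to 0.0641. Saa1 has near-identical relatives, and how the counting split reads between them is not given in the sources used here.

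Some libraries stood apart from others of their group. Mitochondrial transcripts held 23.7% of the counts in control replicate 1 and 14.6% in control replicate 2, against 7.48% and 8.96% in control replicates 3 and 4 and 3.83% to 6.45% in the LPS libraries. LPS replicates 2 and 3 resembled each other more than any other pair within a group. The standard deviation of their log2 ratio over 3484 well-counted genes was 0.146, compared with 0.313 to 0.542 in the other pairs. They still differed beyond counting noise, with a variance 3.8 times that expected from counting alone. That measure covers counting error only and cannot tell separate mice from repeat preparations of the same liver. They were kept as 2 libraries, and fits with their counts summed are given beside the results they change. Among the controls, replicates 1 and 2 (0.313) and replicates 3 and 4 (0.321) were closer than the other control pairs (0.391 to 0.542). The cause of this split was not tested.

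Each gene was tested with edgeR's quasi-likelihood method, with Benjamini-Hochberg adjustment over all 13683 genes, and was called changed at an adjusted p below 0.05 and a log2 fold change beyond 1 in either direction. In this comparison 7.81% of all tested genes were called higher after LPS and 7.31% lower. Among the 9 secreted factors, 1 was called higher (Angptl4), 2 were called lower (Inhba and Lect2) and 6 were not called. Without the fold threshold 13.3% of all genes were higher and 13% lower, and the same 3 factors passed. Libraries of the LPS group lay wholly above or wholly below the control libraries for 35.4% of all genes, and for 3 of the 9 factors. The median log2 fold change was -0.86 over the 9 factors and -0.01 over all tested genes. That median of the 9 is the value of Gdf15, whose 95% interval ran from -2.23 to 0.51, so it does not show a shift of the set. The 9 transcripts together took 0.0968% to 0.11% of the counts in control libraries and 0.0885% to 0.0972% in LPS libraries, and Fetub alone made up 71% of their summed CPM.

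**Figure D1:**
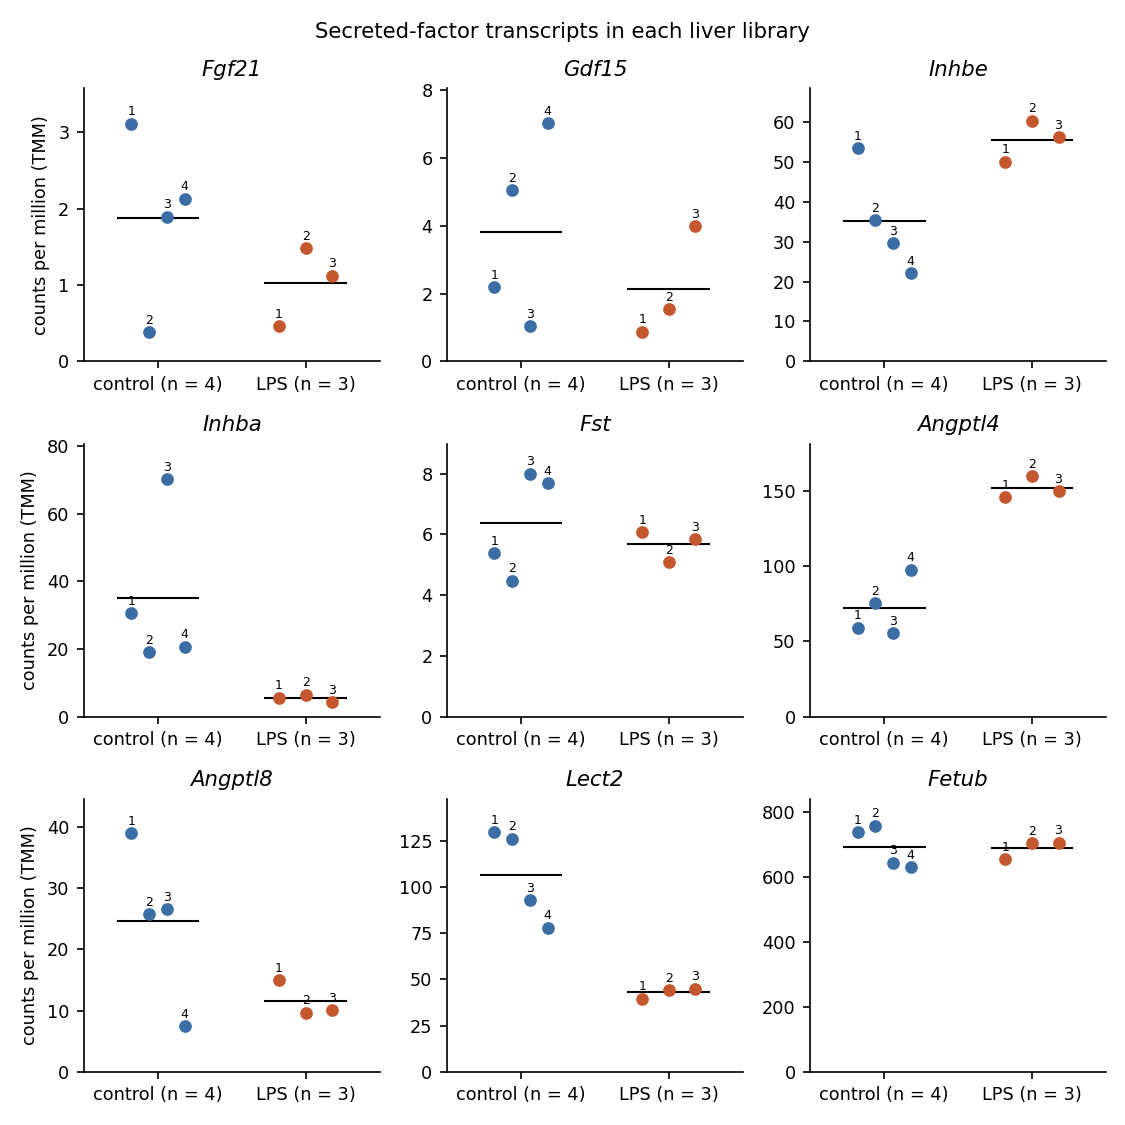
Level of each of the 9 secreted-factor transcripts in each library, in CPM on a linear axis that starts at 0. Blue points are the 4 control libraries and orange points the 3 LPS libraries, small digits give the replicate number and black lines the group means. Angptl4 lay above all controls in the LPS libraries, Inhba and Lect2 lay below them, and the other 6 transcripts overlapped.

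The stress hormones FGF21 and GDF15 were measured at low levels and did not pass the test. Fgf21, a fasting and stress hormone that acts through the co-receptor β-Klotho, stood at 3.11, 0.379, 1.89 and 2.13 CPM in the control libraries and at 0.461, 1.48 and 1.12 CPM in the LPS libraries. Control replicate 2 was the lowest of all 7 libraries and the groups overlapped. The fitted log2 fold change was -0.89 (SE 0.65, 95% interval -2.31 to 0.53, edgeR adjusted p = 0.353), and these values rest on 6 to 44 counts per library. Neither a fall of several fold nor a small rise could be told from no change.

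Gdf15, a hormone of stressed cells that suppresses appetite through its brainstem receptor GFRAL, stood at 2.19, 5.05, 1.04 and 7.02 CPM in control and at 0.876, 1.55 and 3.98 CPM in LPS libraries. Control replicates 2 and 4 and LPS replicate 3 were the high libraries, and the groups overlapped. Its log2 fold change was -0.86 (SE 0.63, 95% interval -2.23 to 0.51, edgeR adjusted p = 0.352). Neither transcript passed the threshold in any leave-one-out fit. In those fits the log2 fold change ran from -1.256 to -0.522 for Fgf21 and from -1.678 to -0.388 for Gdf15.

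Of the 8 receptor and co-receptor genes listed for these hormones, 5 were tested, none was called higher and 1 was called lower, with a median log2 fold change of 0.11. The gene that fell was Fgfr3, a fibroblast growth factor receptor, with a log2 fold change of -1.78 (SE 0.20, edgeR adjusted p = 3.84e-05). Klb, which encodes β-Klotho, was 5.17 to 11.5 CPM in control and 7.66 to 11.1 CPM in LPS libraries, with a log2 fold change of 0.17 (SE 0.29). Gfral had 0 counts in all 7 libraries.

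The integrated stress response, of which both hormones are known outputs, was followed through 35 genes. Of the 31 tested, 5 rose and none fell, and the median log2 fold change was 0.33 against -0.01 over all genes. Asns, asparagine synthetase, went from 1.83 to 3.91 CPM in control to 17.7 to 32.2 CPM in LPS libraries, a log2 fold change of 3.27 (SE 0.28, edgeR adjusted p = 3.05e-06). Ddit4, an inhibitor of mTORC1 signalling, rose by 2.73 (SE 0.45) and Nupr1, a stress-induced chromatin protein, by 2.41 (SE 0.31) on the same scale. The remaining pair were Ddit3, the gene for CHOP, at 2.09 (SE 0.27), and Wars, a tryptophanyl-tRNA synthetase that is also induced by interferon, at 1.20 (SE 0.17). Atf4 itself had a log2 fold change of 0.04 (SE 0.15, edgeR adjusted p = 0.878) and Trib3, a pseudokinase target of CHOP, one of -0.03 (SE 0.42, edgeR adjusted p = 0.971); the sign of each turned under other settings. Asns, Ddit3, Ddit4 and Nupr1 thus rose in libraries where no rise of Fgf21 or Gdf15 was detectable; the difference between these genes and the hormones was not tested.

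Gdf15 is also a known target of p53, and whether p53 contributed to its level here was not tested. Of 16 tested p53 targets 5 rose and none fell, with a median log2 fold change of 0.68. Cdkn1a, the cyclin-dependent kinase inhibitor p21, rose from 5.5 to 20 CPM in control to 123 to 134 CPM in LPS libraries, by 3.67 on the log2 scale (SE 0.36, edgeR adjusted p = 9.63e-06). Pmaip1, a pro-apoptotic BH3 protein, had a log2 fold change of 2.81 (SE 0.47) and Btg2, an antiproliferative factor, one of 2.73 (SE 0.33). The others were Fas, the death receptor, at 1.16 (SE 0.16) and Zmat3 at 1.09 (SE 0.24), the last at 0.98 without control replicate 1 and 0.96 with total counts as library sizes, below the fold threshold in both.

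Of the angiopoietin-like factors, Angptl4 was called and Angptl8 was not. Angptl4, an inhibitor that unfolds lipoprotein lipase, was 59.3, 75.4, 55.7 and 97.9 CPM in the control libraries and 146, 160 and 150 CPM in the LPS libraries. Every LPS library was above the highest control, which was control replicate 4. Angptl4 rose 2.11-fold, a log2 fold change of 1.08 (SE 0.19, 95% interval 0.67 to 1.48, edgeR adjusted p = 0.000966). The rise sat close to the fold threshold of 1. Its log2 fold change was 0.94 with library sizes taken as total counts, 0.99 without control replicate 1 and 0.97 without control replicate 3, and so was not called there although its adjusted p stayed below 0.01.

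Angptl8, an insulin- and feeding-induced factor in the inhibition of lipoprotein lipase, was 39, 25.8, 26.6 and 7.4 CPM in control and 15, 9.66 and 10 CPM in LPS libraries. Control replicates 1 to 3 were above all LPS libraries, and control replicate 4 was below all of them. The log2 fold change was -1.08 (SE 0.41, 95% interval -1.96 to -0.20), and the edgeR adjusted p of 0.0673 missed the threshold. It passed without control replicate 4, at -1.40 with an adjusted p of 0.00129. The same held with DESeq2 (adjusted p = 0.0224), with total counts as library sizes (0.0415) and with no filter (1.41e-06). With no filter its log2 fold change was -1.07 with an SE of 0.20, against an SE of 0.41 as reported. The smaller p there came with the smaller SE and not with a larger change. With library numbers as a block, and without control replicate 4, the adjusted p was 0.000248. In the other leave-one-out fits it was 0.0675 to 0.199, and with LPS replicates 2 and 3 summed it was 0.195. Angptl8 lies within an intron of Dock6 on the opposite strand and shares no exon bases with it in GENCODE M21. Dock6 had a log2 fold change of -1.03 (SE 0.35, edgeR adjusted p = 0.0483), a call lost without control replicate 1 or 2 or LPS replicate 2 or 3 (adjusted p 0.106 to 0.175), with LPS replicates 2 and 3 summed (0.139) and where 10 counts were required in every sample (0.0544), and whether the counting used the strand is not given in the sources used here.

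Transcripts of hepatic and lipoprotein lipase fell. Of 10 tested genes for other angiopoietin-like proteins, lipases and lipase partners, none rose and 5 fell, and the median log2 fold change was -1.09. Lipc, the hepatic lipase of lipoprotein remnants, went from 160 to 174 CPM in control to 14.8 to 18.7 CPM in LPS libraries, a log2 fold change of -3.27 (SE 0.16, edgeR adjusted p = 2.3e-08). Lpl, lipoprotein lipase, had a log2 fold change of -1.70 (SE 0.18, edgeR adjusted p = 2.01e-05), and Gpihbp1, the protein that anchors the enzyme to capillary walls, one of -1.26 (SE 0.33, edgeR adjusted p = 0.0127). Angptl2 fell by 2.52 (SE 0.36) and Angptl6 by 2.24 (SE 0.38) on the log2 scale. Lipg, the endothelial lipase, had a log2 fold change of -0.12 (SE 0.45, edgeR adjusted p = 0.879), whose sign turned under other settings. Transcripts of ANGPTL4 and of its target lipase thus moved in opposite directions. The call for Gpihbp1 was lost without LPS replicate 2, at an adjusted p of 0.0582.

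Angptl4 is a known target of PPARα, of the glucocorticoid receptor and of hypoxia-inducible factors, and each programme was described by its own list. Whether any of them contributed to the rise of Angptl4 was not tested. Of 14 genes of the glucocorticoid list 9 rose and 2 fell, with a median log2 fold change of 1.38; 7 rose without control replicate 1 and 8 with DESeq2, and Cdkn1a, given above as a p53 target, is among the 9. Fkbp5, a chaperone of the receptor, rose from 6.5 to 20.2 CPM in control to 178 to 183 CPM in LPS libraries, a log2 fold change of 3.90 (SE 0.30, edgeR adjusted p = 1.07e-06). The metallothioneins, which also answer to metals and cytokines, rose further, Mt2 from 1.14 to 2.34 CPM in control to 723 to 1054 CPM in LPS libraries and Mt1 by 7.47 (SE 0.33) on the log2 scale. Those that fell were G6pc, the last enzyme of glucose release, at -2.44 (SE 0.31), and Dusp1, a phosphatase of stress-activated kinases, at -1.60 (SE 0.23).

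The PPARα list was split. Of 28 tested genes 3 rose and 5 fell, and the median log2 fold change was 0.05. Cidec, a lipid droplet protein, rose by 3.06 (SE 0.36), and the fatty acid hydroxylases Cyp4a14 and Cyp4a31 rose by 2.70 (SE 0.47) and 2.57 (SE 0.29) on the log2 scale. Acaa1b, a peroxisomal thiolase, had a log2 fold change of -3.69 (SE 0.20, edgeR adjusted p = 5.1e-08), Fabp1, the fatty acid binding protein of liver, one of -2.78 (SE 0.21) and Acot1, a thioesterase, one of -2.04 (SE 0.29). The remaining falls were Pdk4 at -1.26 (SE 0.36) and Ehhadh at -1.01 (SE 0.16), with Pdk4 called only without control replicate 1 or 3 among the 7 leave-one-out fits, and neither with a replicate block (library numbers as a factor, without control replicate 4) nor with LPS replicates 2 and 3 summed (adjusted p 0.0938 and 0.0684). Ehhadh was at -0.94 without control replicate 3 or 4, at -0.97 without LPS replicate 2, at -0.92 with the replicate block and at -0.99 with LPS replicates 2 and 3 summed, was at the threshold itself and not called with no filter, and 3 genes of the list were called lower without control replicate 4 or without LPS replicate 2. The Cyp4a genes lie in a cluster of close relatives, whose counts could be shared.

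Of 19 tested hypoxia targets 5 rose and 2 fell, with a median log2 fold change of 0.66. Ldha, lactate dehydrogenase, had a log2 fold change of 1.37 (SE 0.20, edgeR adjusted p = 0.000325), Hk2, a hexokinase, one of 1.76 (SE 0.48, edgeR adjusted p = 0.0174) and Adm, adrenomedullin, one of 1.69 (SE 0.57, edgeR adjusted p = 0.0453). The others were Slc2a1, a glucose transporter, at 1.11 (SE 0.19) and Ero1a, an oxidase of the endoplasmic reticulum, at 1.05 (SE 0.19), neither of which was called with total counts as library sizes. Slc2a1 was at 0.99 without control replicate 2, and Ero1a at 0.98, 0.95 and 0.99 without control replicate 1, control replicate 2 and LPS replicate 1. Ndrg1 fell by 1.51 (SE 0.22) and Egln3, an oxygen sensor, by 1.36 (SE 0.25). Adm was called in 1 of the 7 leave-one-out fits, the one without LPS replicate 2, and had an adjusted p of 0.0521 to 0.402 in the others, 0.057 with total counts as library sizes and 0.0574 with the replicate block; without LPS replicate 1 it stood at 0.78 and Hk2 at 0.93. As a count, 2 genes of the list were called higher without control replicate 2 or without LPS replicate 1. In that LPS library Hk2 stood at 7.6 CPM and Adm at 5.71 CPM against 2.05 to 2.58 CPM and 1.35 to 1.81 CPM in the other LPS libraries.

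Angptl8 is a known target of SREBP1c and ChREBP, the insulin- and glucose-responsive regulators of fat synthesis. Of 20 tested genes of that programme 14 fell and none rose, and the median log2 fold change was -1.42. Scd1, the stearoyl-CoA desaturase, went from 3731 to 6914 CPM in control to 181 to 533 CPM in LPS libraries, a log2 fold change of -3.98 (SE 0.43, edgeR adjusted p = 2.11e-05). Thrsp, a lipogenic regulator, had a log2 fold change of -3.73 (SE 0.30), Mlxipl, the gene for ChREBP, one of -2.72 (SE 0.24) and Srebf1, the gene for SREBP1, one of -2.44 (SE 0.17). Control replicate 4, the lowest library for Angptl8, was the highest for the summed CPM of this list. That sum was 9377 CPM there and 5822 to 6901 CPM in the other controls. Whether this programme contributed to the level of Angptl8 was not tested.

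Where edgeR called no gene of a list in 1 direction, DESeq2 called none either. At an adjusted p below 0.05 with no fold threshold, and equally at an unadjusted p below 0.05, the count in that direction was 0 for rises of the receptor list and falls of the LECT2 and fetuin-B list, 2 for falls of the activin list, and 1 each for falls of the stress response and p53 lists and for rises of the lipase, lipogenic and LECT2 and fetuin-B lists.

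**Figure D2:**
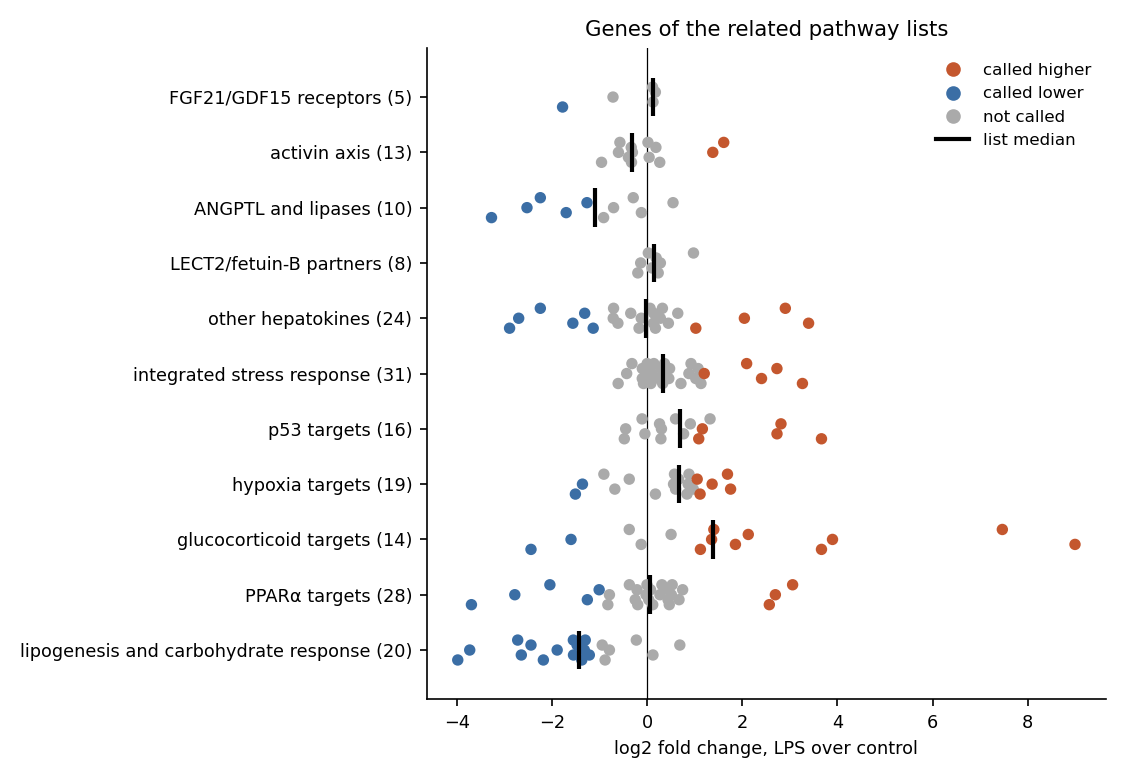
Log2 fold change, LPS over control, of every tested gene in the 11 related gene lists, with the number of tested genes in brackets. Orange points were called higher, blue points lower and grey points neither, black bars mark list medians and the vertical spread of points has no meaning. The lipogenic list lay mostly below 0 with a median of -1.42, and the glucocorticoid list mostly above it with a median of 1.38.

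Among the activin genes, the transcript of 1 subunit fell. Inhba, which encodes the βA subunit of activin A, was 30.6, 19.1, 70.1 and 20.7 CPM in the control libraries and 5.62, 6.44 and 4.23 CPM in the LPS libraries. Control replicate 3 was more than any other library, and the highest LPS library was still below the lowest control. Inhba was 6.45-fold lower after LPS, a log2 fold change of -2.69 (SE 0.42, 95% interval -3.61 to -1.77, edgeR adjusted p = 0.000488). The call held in all 7 leave-one-out fits, and without control replicate 3 the log2 fold change was -2.11. In GENCODE M21 a pseudogene on the opposite strand, B230303A05Rik, overlaps Inhba without sharing exon bases; it was at 0 to 1.64 CPM, with a log2 fold change of -2.15 (SE 0.85, edgeR adjusted p = 0.0816), and passed with DESeq2 (0.0398), without control replicate 3 (0.0466) and without LPS replicate 1 (0.0485).

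Inhbe, the hepatocyte subunit of activin E, was 53.6, 35.5, 29.6 and 22.2 CPM in control and 50.1, 60.4 and 56.3 CPM in LPS libraries. Control replicate 1 lay among the LPS libraries and the other controls lay below them. The log2 fold change was 0.66 (SE 0.24, 95% interval 0.15 to 1.18), and the edgeR adjusted p of 0.057 missed the threshold. Without control replicate 1 the log2 fold change was 0.93 with an edgeR adjusted p of 0.00215, still below the fold threshold. In the other leave-one-out fits the edgeR adjusted p was 0.0723 to 0.17, and the lowest log2 fold change was 0.49, without control replicate 4. With mitochondrial genes left out of the library sizes it was 0.65 (edgeR adjusted p = 0.061). DESeq2 gave an adjusted p of 0.0326.

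Fst, the activin-binding antagonist, was 5.38, 4.48, 8 and 7.69 CPM in control and 6.08, 5.09 and 5.85 CPM in LPS libraries. All LPS libraries lay within the control range, and the log2 fold change was -0.17 (SE 0.26, 95% interval -0.74 to 0.40, edgeR adjusted p = 0.682). For Fst it ran from -0.322 to -0.052 when a library was left out and was -0.041 with the replicate block. In GENCODE M21, 115 of its 4589 exon bases overlap an antisense gene, Gm47040.

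Because follistatin acts by binding activin, the log2 ratio of Inhba to Fst counts was taken within each library. It was 2.50, 2.09, 3.13 and 1.42 in control and -0.11, 0.34 and -0.46 in LPS libraries. As a geometric mean, the control libraries held 4.87 Inhba counts for each Fst count and the LPS libraries 0.946. The difference was -2.36, with p = 0.0286 in a two-sided exact permutation test over the 35 splits of 7 libraries. That is the smallest p that they allow. After Benjamini-Hochberg adjustment over the 4 ratios tested it was 0.114 and did not pass the correction, although all 3 LPS libraries were below all 4 controls. A ratio alone at the smallest p could not have passed, so the correction could not decide here.

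Inhbe was likewise set against Inhbc, its neighbour in function as another liver activin subunit. Inhbc was 49.4 to 94.3 CPM in control and 65.8 to 76.8 CPM in LPS libraries, with a log2 fold change of 0.02 (SE 0.19). The log2 ratio of Inhbe to Inhbc differed by 0.68 (two-sided exact permutation p = 0.114, adjusted p = 0.228). Of 13 tested genes for other subunits, follistatin relatives, receptors and SMADs, 2 rose and none fell, with a median log2 fold change of -0.31. Smad7, an inhibitory SMAD, was at -0.96 (SE 0.26, edgeR adjusted p = 0.0178) and was called lower without control replicate 1 or 2 or LPS replicate 1 or 3 (-1.11 to -1.01) and with total counts as library sizes (-1.08). Over all leave-one-out fits the log2 fold change of Smad7 ran up to -0.763 and its edgeR adjusted p up to 0.084. Inhbb, the βB subunit, rose from 0.55 to 2.15 CPM in control to 2.64 to 6.77 CPM in LPS libraries, a log2 fold change of 1.61 (SE 0.47, edgeR adjusted p = 0.0228), a call that was lost without LPS replicate 1 (adjusted p = 0.145). Acvr1b, the activin type I receptor ALK4, had a log2 fold change of 1.38 (SE 0.24, edgeR adjusted p = 0.000925).

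Lect2, which encodes a chemotactic factor that binds the receptors MET and TIE1, was 130, 126, 93 and 78 CPM in control and 39.5, 44.3 and 45 CPM in LPS libraries. Every LPS library was below the lowest control, control replicate 4. Lect2 was 2.48-fold lower after LPS, a log2 fold change of -1.31 (SE 0.19, 95% interval -1.73 to -0.90, edgeR adjusted p = 0.000246), and it was called lower in all 7 leave-one-out fits.

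Fetub, by far the most abundant of the 9 transcripts, was 738, 758, 644 and 629 CPM in control and 654, 704 and 706 CPM in LPS libraries. The LPS libraries lay within the control range. The log2 fold change was -0.01 (SE 0.14, 95% interval -0.32 to 0.30, edgeR adjusted p = 0.974), which leaves room for a change of at most 0.32 on the log2 scale by that interval. Fetub thus gave the narrowest interval of the 9, and its sign turned under other settings.

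Ahsg, the gene for the related fetuin-A, was 4079 to 6085 CPM in control and 5468 to 6358 CPM in LPS libraries, with a log2 fold change of 0.28 (SE 0.20, edgeR adjusted p = 0.338). In control replicates 1 to 4 the log2 ratio of Fetub to Ahsg was -2.47, -2.46, -3.24 and -3.16. It was -3.17 to -3.06 in LPS libraries and differed by -0.30 between groups (two-sided exact permutation p = 0.371, adjusted p = 0.495). This difference ran from -0.44 to -0.179 when a library was left out. Of 8 tested genes for LECT2 receptors, the insulin receptor and cystatin-fold relatives, none was called in either direction, with a median log2 fold change of 0.15. Without the fold threshold 1 passed. It was Kng2, a kininogen, at 0.98 (SE 0.16, edgeR adjusted p = 0.000648), which passed the fold threshold without control replicate 2, control replicate 3 or LPS replicate 1 (at least 1.01).

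**Figure D3:**
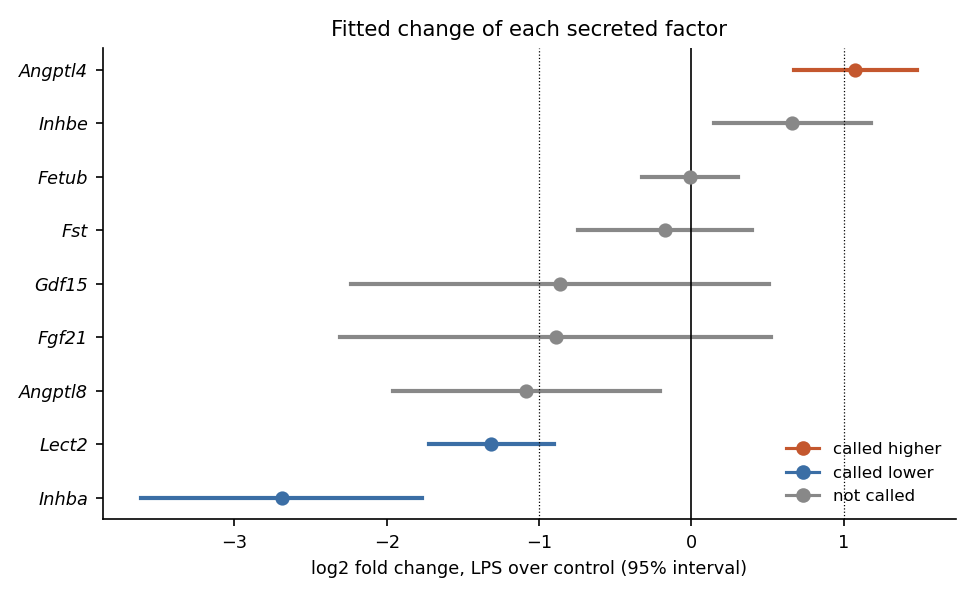
Fitted log2 fold change, LPS over control, of each of the 9 secreted factors with its 95% interval; dotted lines mark a log2 fold change of 1 in each direction. Inhba at -2.69 and Lect2 at -1.31 (blue) were called lower, Angptl4 at 1.08 (orange) was called higher, and the intervals of Fgf21 and Gdf15 were the widest.

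Other liver hormones and carriers moved both ways. Of 24 tested genes 4 rose and 6 fell, and the median log2 fold change was -0.03. Fgl1, a fibrinogen-like hepatokine of the acute phase, rose from 273 to 920 CPM in control to 5117 to 5573 CPM in LPS libraries, a log2 fold change of 3.40 (SE 0.33, edgeR adjusted p = 1.01e-05). Manf, a secreted factor of endoplasmic reticulum stress, rose by 2.05 (SE 0.18, edgeR adjusted p = 3.23e-06), Gpnmb by 2.91 (SE 0.69) from at most 0.566 CPM and not without LPS replicate 1 (adjusted p = 0.0546), and Smoc1 by 1.02 (SE 0.13) on the log2 scale, which was not called with total counts as library sizes, without control replicate 2 (0.99), without LPS replicate 2 (0.96) or with LPS replicates 2 and 3 summed. Igfbp2, an insulin-like growth factor binding protein, went from 203 to 218 CPM to 26.7 to 30.6 CPM, a log2 fold change of -2.89 (SE 0.14, edgeR adjusted p = 3.02e-08), and Igfals, the subunit that stabilises the circulating complex, had one of -2.70 (SE 0.20). Angptl6, listed here too, was the next largest fall.

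The order of levels within the set was read per length, as CPM per kilobase of exon in GENCODE M21. In control libraries Fetub stood first at a mean of 352.8 ± 33.0 (SD, n = 4), followed by Lect2 at 116 ± 27.6. Angptl8 at 28.6 ± 15.1 and Angptl4 at 20.4 ± 5.43 overlapped in range, as did Inhbe at 6.62 ± 2.52 and Inhba at 5.5 ± 3.74. Gdf15, Fgf21 and Fst came last, at 2.06 ± 1.47, 1.98 ± 1.19 and 1.39 ± 0.377, and their ranges overlapped, with those of Gdf15 and Fgf21 also reaching into that of Inhba. The ranges of Fetub and Lect2 overlapped with no other, and that of Angptl8 reached down to those of Inhbe and Inhba through control replicate 4.

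In LPS libraries Fetub was again first, at 350.7 ± 14.9 CPM per kilobase (SD, n = 3). Lect2 at 46.7 ± 3.27 and Angptl4 at 43 ± 2.02 now overlapped in range, and Angptl8 at 13.4 ± 3.46 overlapped with Inhbe at 10.5 ± 0.974. Inhba moved to the last place at 0.85 ± 0.175, with a range that overlapped those of Gdf15 and Fgf21 and lay below that of Fst.

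For each factor the genes with the most similar pattern were found as those with the smallest root mean square difference in log2 CPM, centred on the control mean, over the 7 libraries and among the 7071 or 7072 other genes of at least 10 CPM. For Angptl4 they were Tnfrsf1b, a tumour necrosis factor receptor, at 0.0972, Ctbs at 0.146 and Nfkbia, the inhibitor of NF-κB, at 0.147. For Inhba they were Ugt2b37 at 0.221, Gclc at 0.372 and Cyp2c70 at 0.373, and for Lect2 they were C8g, a complement component, at 0.107, Emc9 at 0.113 and Arrdc3 at 0.125. Inhbe lay closest to Bet1l at 0.134, Bax at 0.146 and Rps10 at 0.194.

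Angptl8 lay closest to mt-Rnr1 at 0.356, a mitochondrial ribosomal RNA, then to Id3 at 0.366 and Mrpl14 at 0.487. Fetub lay closest to Mydgf, Polr2e and Gm10053, at 0.0462 to 0.0483, and Fst to Rsf1, Ttc9c and Efr3a, at 0.0675 to 0.0954. The low and scattered transcripts had no close match, with 0.751 to 0.784 for Fgf21 (Fgfr2, Igfbp3 and Phlpp1) and 0.523 to 0.66 for Gdf15 (Arl4d, Pmvk and Depp1).

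Promoter sequences from RefSeq, build GRCm38.p6, were matched for 7 of the 9 genes (Fgf21, Gdf15, Angptl8, Inhba, Inhbe, Lect2 and Fetub), and the 250 bases before each start were searched on both strands. The element TGATGNAA, the letters bound by ATF4 with its C/EBP partners, was found in 3.45% of 32851 promoters and in 3 of the 9 promoters of the 7 genes, 1 each of Fgf21, Angptl8 and Inhbe. All 3 read TGATGCAA in one orientation. They are shown because 5 of 31 tested stress response genes rose while these 3 genes were not called in the main edgeR fit. The element is in capitals and each line runs 5′ to 3′ along the gene's own strand.
Fgf21, chr7:45615596-45615655, minus strand: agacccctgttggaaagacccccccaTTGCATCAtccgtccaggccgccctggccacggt
Angptl8, chr9:21835354-21835413, plus strand: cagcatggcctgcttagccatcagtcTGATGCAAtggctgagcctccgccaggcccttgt
Inhbe, chr10:127351996-127352055, minus strand: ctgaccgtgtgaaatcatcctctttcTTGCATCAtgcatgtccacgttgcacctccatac
The element began 139 bases before the start of Fgf21, 130 before that of Angptl8 and 181 before that of Inhbe. The fitted log2 fold changes of these genes were -0.89, -1.08 and 0.66 and none was called, and a match of letters is a description and not a shown binding site.

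The E-box CACGTG occurred in 6.02% of all promoters and in 1 promoter each of Fgf21, 50 bases before its start, and Gdf15. The STAT element TTCNNNGAA occurred in 7.02% of all promoters and in none of those 9, and AGGTCA, a nuclear receptor recognition site, in 14% of all promoters and in 1 of Gdf15 among the 9.

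Bulk liver holds several cell types, and in such samples fewer cells of a type and less RNA per cell cannot be told apart. The summed level of 13 hepatocyte markers was 87935, 89886, 116850 and 100920 CPM in control and 87515, 107370 and 108810 CPM in LPS libraries, with 3 genes higher and 3 lower. This sum overlapped between the groups while its genes moved both ways, and Alb stood at 24642 CPM or more in each of the 7 libraries.

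Inflammatory cell markers moved with LPS. Of 10 neutrophil markers 8 passed the filter and were called higher, some of them at or near 0 counts in control and so kept through their LPS counts, and the sum of all 10 went from 5.24, 4.1, 1.96 and 3.44 CPM in control to 222, 162 and 160 CPM in LPS libraries. S100a9 rose from at most 2.05 CPM in control to 72.4 to 103 CPM in LPS libraries, and Ly6g was at 0 in every control library and in LPS replicate 2. Of 12 Kupffer cell and macrophage markers 6 were higher and 1, Clec4f, lower, and their sum was 141, 202, 188 and 123 CPM in control and 754, 226 and 228 CPM in LPS libraries. LPS replicate 1 stood apart, with Marco at 410 CPM against 66.5 and 65.6 CPM in the other LPS libraries. The Kupffer cell markers Cd5l, Timd4 and Vsig4 were not called (-0.26, 0.19 and -0.92 on the log2 scale) but were called lower without LPS replicate 1, at -3.04 (SE 0.33), -3.52 (SE 0.72) and -1.92 (SE 0.32). Cd5l stood at 75.8 CPM in that library and at 4.9 and 3.3 CPM in the other LPS libraries, against 24.1 to 45 CPM in control. Whether such cells contributed to the transcripts of Angptl4, Inhba or Lect2 was not tested.

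Of 11 stellate cell and fibroblast markers none was higher and 4 were lower, and their sum was 633, 456, 273 and 434 CPM in control and 376, 310 and 292 CPM in LPS libraries, with Reln the largest fall at -2.32 (SE 0.18). Control replicate 3, highest for Inhba, was lowest for this sum. Of 10 endothelial markers 2 were higher and 1 lower, with sums of 126 to 201 CPM in control and 204, 119 and 115 CPM in LPS libraries. Of 7 tested bile duct markers 1 was higher, and of 5 tested lymphocyte markers 3 were lower. Of 5 tested red cell markers 4 were lower, with sums of 179 to 308 CPM in control and 136, 53.9 and 53.8 CPM in LPS libraries. LPS replicate 1 thus stood apart from the other LPS libraries for the endothelial and red cell sums too.

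Attached tissue was searched for as well. Of the adipocyte markers Lep was at 0 in all libraries, Adipoq and Plin1 were at 0 in all but control replicate 1 with 0.354 and 0.142 CPM, and Fabp4, which macrophages and endothelium also express, made 8.71 of the list's mean sum of 10.4 CPM in control and 79.5 of 79.8 CPM in LPS libraries and rose by 3.20 on the log2 scale (SE 0.22). Cfd, the other tested gene of that list, fell by 2.42 (SE 0.82, edgeR adjusted p = 0.0463) from at most 2.48 CPM, a call lost without LPS replicate 1, 2 or 3 (adjusted p 0.0974, 0.116 and 0.153) and with LPS replicates 2 and 3 summed (0.119). Of 8 pancreas and muscle markers 7 were at 0 in all libraries and Cela1 fell by 1.49 (SE 0.19). The part of any of these cell types in the results was not tested.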

How the data were processed

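Liver RNA from 4 control and 3 LPS libraries was sequenced. The authors deposited raw counts per gene; the submitters' processing notes name cutadapt 1.9.1, HISAT2 2.2.1, HTSeq 0.6.1, DESeq2 1.34.0 and the build GRCm39, and the strand setting of the counting is not given in the sources used here. Groups came from the sample labels. Genes were kept by edgeR's expression filter and tested with edgeR 4.0.16 (R 4.3.3) after scaling by the trimmed mean of M-values; standard errors were taken as the size of the log2 fold change over the square root of F. The tests were tried on simulated counts. Within-library ratios used a pseudocount of 0.5; 4 were tested and 1 is not reported here.

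The members and gene lists were chosen with earlier results of these data known. Named genes were the 9 members, up to 3 largest rises and 3 largest falls called in each of 11 pathway lists, the partners in the reported ratios, the 3 most similar genes of each member and 4 acute-phase genes; another 31 genes, such as Atf4, Trib3, Klb, Srebf1 and those completing a short count, were named after their values were seen. Genes that did not pass the filter, such as Gfral, Ly6g, Lep, Adipoq and Plin1, were named in addition. Markers came from 10 lists. Alternatives were DESeq2 1.42.0, other scalings, filters, thresholds and pseudocounts, a replicate block, summed LPS replicates and leaving out each library. Exon lengths and overlaps came from GENCODE M21 and promoters from RefSeq, both on GRCm38, so only promoter coordinates are given, on that build. Figures were drawn with matplotlib 3.10.9 in Python 3.11.15. With 14991022 to 20500391 counts per library, 3 counts correspond to 0.138 to 0.212 CPM, which covers counting error only.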

Additional observations from a re-analysis of the deposited data

Results flagged for a closer look

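The 4 control libraries were searched for a single library far from the others. The search covered each named gene that passed the filter on low counts, each reported ratio and each summed list. Named genes that did not pass it, such as Adipoq and Plin1, were not searched. Of the 132 groups searched, 6 passed the 5% critical value of Dixon's test for 4 values, on the gap over the range. Chance alone passes about 1 in 20, a rate that does not hold for genes chosen for likeness to a factor over the same libraries. Of those that passed, Gclc was chosen for its likeness to Inhba and Ctbs for its likeness to Angptl4. Summed lists also hold genes that were searched singly, so the groups are not independent. The summed CPM of the activin list passed at 0.989, with control replicate 3 at 219.12 and the others at 178.48 to 178.94. Gclc passed at 0.845, with the same library at 637 CPM against 336 to 383 CPM. Control replicate 3 was also the one apart for Pdk4 at 0.832 (6.35 CPM against 21.3 to 24.3 CPM) and for Reln at 0.83 (29.1 CPM against 39.2 to 41.3 CPM). Adm passed at 0.91, with control replicate 2 at 0.379 CPM against 1.06 to 1.13 CPM, and Ctbs at 0.898, with control replicate 4 at 14.9 CPM against 10.3 to 10.8 CPM. Inhba itself, at 70.1 CPM in control replicate 3, did not pass.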

How the results depend on the processing

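Inhba and Lect2 were called lower under all 9 other settings and in all 7 leave-one-out fits, with log2 fold changes of -2.90 to -2.11 and -1.44 to -1.21 in the latter. The number of the 9 factors called higher was 0 with total counts as library sizes and 0 to 1 when a library was left out, as Angptl4 fell just under the fold threshold there; with total counts the median of all genes moved from -0.014 to -0.129. Angptl8 was past the threshold with DESeq2, with total counts, without a filter (adjusted p = 1.41e-06), with the replicate block and without control replicate 4, and its adjusted p ranged up to 0.199. Inhbe passed on p alone with DESeq2, without a filter (0.00108) and without control replicate 1, with a range up to 0.17. Without a filter the SE fell from 0.405 to 0.199 for Angptl8 and from 0.237 to 0.173 for Inhbe, at nearly unchanged log2 fold changes. It rose from 0.262 to 0.286 for Fst and from 0.144 to 0.183 for Fetub. Why the SE moved in that fit was not tested. Fgf21 could not be tested where 10 counts were required in every sample. Over all genes, 693 were called higher and 759 lower with that filter, which tests 11307 genes, 926 higher and 1177 lower with total counts, against 1068 and 1000 as reported, and 1825 higher and 1773 lower were counted without a fold threshold. Signs of values near 0 turned: Fetub was 0.001 without a filter and -0.058 to 0.03 when a library was left out; Atf4 was -0.073 with total counts and -0.067 to 0.111 when a library was left out; Trib3 was 0.053 with LPS replicates 2 and 3 summed and -0.24 to 0.248 when a library was left out; Inhbc was -0.099 with total counts and -0.119 to 0.203 when a library was left out; Lipg was 0.39 with the replicate block and -0.379 to 0.29 when a library was left out. Cd5l was 0.238 with LPS replicates 2 and 3 summed and -3.039 to 0.266 when a library was left out, and Timd4 was -1.663 with the replicate block and -3.52 to 0.749 when a library was left out. The cause was not tested. The log2 ratio of Inhba to Fst differed by -2.65 to -2.082 when a library was left out, with p = 0.0667 or 0.1 in the exact permutation test, the smallest that 6 libraries allow. Library numbers were not taken as pairs; deviations of same-numbered libraries from their group means correlated across genes at 0.258, -0.002 and 0.104. With a replicate block and without control replicate 4, 1775 of the 2068 called genes kept their call, 3 of the 9 factors were called lower, and Atf4 was -0.068, Trib3 0.135 and Inhbc -0.1. LPS replicates 2 and 3 summed left 1 factor higher and 2 lower. Leaving out each library for the list counts and rescaling the pattern measure were chosen after seeing the data. Fgf21 rests on 6 to 44 counts per library and Gdf15 on 17 to 145; depth was not separated from the spread between libraries.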
